A study of Mus musculus with 64 samples.

Results

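The transcripts of 10 forkhead transcription factors were followed across all 64 libraries of the study. They were Foxp3, the lineage factor of regulatory T (Treg) cells, and 9 relatives from the same gene family, namely Foxp1, Foxp4, Foxo1, Foxo3, Foxj2, Foxj3, Foxn3, Foxk1 and Foxk2. They were chosen by gene symbol, from 55809 genes counted in the files. All 10 passed the filter on low counts in every comparison, and 35 other forkhead genes are also present in the files.

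Bulk RNA was sequenced from sorted mouse cells in 28 groups. The degron mice had a Foxp3-AID allele, which encodes a Foxp3 protein fused to an auxin-inducible degron. The ligase TIR1(F74G), placed at ROSA26, marks that protein for destruction when 5-ph-IAA is given, and ROSA26-WT mice lack the ligase. All degron mice, controls included, received 5-ph-IAA for 7 days. The adults were heterozygous females in which sorted cells carried the Foxp3-AID allele together with a ZsGreen reporter and a Cre recombinase, which also releases TIR1 from its stop cassette. Active Treg cells and CD73-negative Treg cells of the thymus each gave 3 TIR1 and 3 WT libraries. Infants, treated from soon after birth, gave 4 libraries titled TIR1 and 4 titled WT, from spleen and lymph nodes. For its neonatal experiments the study reports hemizygous Foxp3-AID males, which carry no other Foxp3 allele, unlike the adult females.

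The other mice had a reversible null allele of Foxp3, whose stop cassette also marks the cells with Thy1.1, and such cells are called Treg "wannabe" cells. In mice with Cd4-driven CreERT2 (Foxp3-LSLCD4-CreERT2), a single dose of 4-hydroxytamoxifen (4-OHT) removes the cassette, and the cells turn on Foxp3 with GFP. These are called plusFoxp3 cells, and cells from mice without CreERT2 (Foxp3-LSLCD4-WT) are called minusFoxp3 cells. Heterozygous females supplied both, so the mice also held normal Treg cells. Resting and active cells, separated by sorting, were taken from untreated mice (day 0) or 3, 7, 14 and 28 days after 4-OHT, and each group has 2 libraries. Untreated Foxp3GFP mice gave 2 further libraries of GFP Treg cells per state. CreERT2 goes with Foxp3 in this design, so the untreated day 0 groups are the only measure of CreERT2 without Foxp3. The study describes the replicates of the induction experiment and of the adult active and thymic degron experiments as biologically independent. The labels do not say whether each came from its own animal, so p-values measure the spread between these libraries.

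The deposited values were read-pair counts per gene. Levels are given below as CPM, the share of a library's read pairs scaled to a common total. A gene was called at an adjusted p under 0.05 in the quasi-likelihood test of edgeR, with fold changes on the log2 scale ± SE. The sequencing depth in read pairs ranged from 27753211 to 34029692 for adult degron cells, from 33704114 to 55801009 for infant cells and from 35097257 to 57419138 for the remaining 44 libraries. The smallest count of any member in any library was 154 read pairs, for Foxo3. All 6 T cell markers were detected in each experiment, with sums of 5060 to 12900 CPM in the degron libraries and 6030 to 7940 CPM in plusFoxp3 cells of days 3 to 28 and in minusFoxp3 cells. The sums of 6 B cell, 6 myeloid and 6 CD8 T and NK cell markers did not exceed 57.8, 29.1 and 71.8 CPM in any library. For CD8 T and NK cell markers, active day 0 plusFoxp3 libraries had 47.0 and 71.8 CPM and active day 0 minusFoxp3 libraries 29.7 and 31.8 CPM.

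Forkhead proteins bind DNA through a winged-helix domain, in which a recognition helix lies in the major groove. Foxp3, Foxp1 and Foxp4 belong to the P class, which also dimerises through a leucine zipper, and Foxp3 and Foxp1 are known to share binding partners and genomic sites in Treg cells. Foxo1 and Foxo3 are held out of the nucleus when Akt, downstream of PI3K, phosphorylates them, and in T cells they maintain homing and survival genes such as Klf2, S1pr1, Ccr7 and Il7r and help to induce Foxp3. Foxk1 and Foxk2 act on metabolic and autophagy genes, and Foxj2, Foxj3 and Foxn3 are less studied in T cells.

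The coding bases of the recognition helix are shown because this is where the proteins touch DNA and where their kinship to Foxp3 can be read, for 9 of the 10 genes. Each sequence gives 45 coding bases, 5′ to 3′, of the stretch of 15 residues that starts at the conserved tryptophan, with capitals marking bases that differ from Foxp3. Sequences and positions are from the GENCODE annotation on GRCm39.
Foxp3: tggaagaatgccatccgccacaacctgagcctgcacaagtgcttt
Foxp4: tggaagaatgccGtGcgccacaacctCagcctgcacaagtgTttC
Foxo1: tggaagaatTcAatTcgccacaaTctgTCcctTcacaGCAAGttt
Foxo3: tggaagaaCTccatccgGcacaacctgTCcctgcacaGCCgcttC
Foxj2: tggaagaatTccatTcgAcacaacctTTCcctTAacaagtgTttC
Foxj3: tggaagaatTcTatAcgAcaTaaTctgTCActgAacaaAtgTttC
Foxn3: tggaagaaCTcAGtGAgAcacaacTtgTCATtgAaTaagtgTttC
Foxk1: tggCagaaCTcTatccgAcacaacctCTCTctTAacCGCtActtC
Foxk2: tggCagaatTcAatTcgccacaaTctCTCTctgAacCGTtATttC
At the protein level, 9 of the 15 residues were the same in all 9 genes. Foxp4 shares 14 residues with Foxp3, and 5 of its bases differ. Foxj2 and Foxj3 share 13 residues with Foxp3, Foxo1, Foxo3 and Foxn3 share 12, and Foxk1 and Foxk2 share 10. The stretch is read from the exons of Foxp3 (chrX:7458985-7459177, plus strand), Foxp4 (chr17:48182238-48185565, minus strand), Foxo1 (chr3:52176838-52252498, plus strand), Foxo3 (chr10:42073859-42150817, minus strand), Foxj2 (chr6:122805457-122808433, plus strand), Foxj3 (chr4:119430992-119442985, plus strand), Foxn3 (chr12:99354647-99354691, minus strand), Foxk1 (chr5:142436137-142437232, plus strand) and Foxk2 (chr11:121181711-121186893, plus strand). It is split by an intron in 8 of the 9 genes and lies in 1 exon only in Foxn3, so the spans given include that intron. Over whole genes, exons of an antisense gene (Gm20402) overlap 674 bases of the 8665 exon bases of Foxo1, and 435 of the 13751 exon bases of Foxp1 lie under other genes on its strand, while Foxp4, Foxo3, Foxj3, Foxn3, Foxk1 and Foxk2 have no such overlap.

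In the reversible-allele cells without Foxp3, Foxo1 and Foxp1 were the most abundant of the 10 transcripts. On the TPM scale, which also divides by the deposited exon length, Foxo1 had 98.1 to 160 TPM (median 138) in the 10 active minusFoxp3 libraries and Foxp1 had 78.0 to 115 TPM (median 99.7). Their ranges overlapped. Foxn3 followed with 47.2 to 60.8 TPM and did not overlap Foxp1. Foxp3 itself had 28.9 to 40.5 TPM and overlapped Foxj2. At the low end stood Foxk1 with 5.31 to 6.94 TPM and Foxo3 with 3.81 to 5.20 TPM. In active GFP Treg cells Foxp3 was first with 494 and 521 TPM, above Foxo1 with 193 and 197 TPM and Foxp1 with 47.9 and 54.8 TPM. Infants also had Foxp3 first, with a mean of 279 ± 15.9 TPM (SD, n = 4) in libraries titled TIR1 against 146 ± 12.0 TPM for Foxo1. Adult degron Treg cells, both genotypes together, had Foxo1 first, with medians of 209 TPM in the 6 thymic and 120 TPM in the 6 active libraries. Foxp3 had medians of 102 and 57.5 TPM there, below Foxp1 with 103 and 77.0 TPM. Its range overlapped that of Foxp1 in both.

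Foxp3 transcript was restored by day 3 after 4-OHT and changed little afterwards (the plot of Foxp3 by day). In resting cells the 2 plusFoxp3 libraries had 80.7 and 70.5 CPM at day 0, 571 and 575 CPM at day 3, 448 and 607 CPM at day 7, 612 and 614 CPM at day 14, and 526 and 615 CPM at day 28. The 10 resting minusFoxp3 libraries had 47.3 to 81.5 CPM, so no plusFoxp3 library of days 3 to 28 came near them. Foxp3 was the only member called at each of these days in resting cells, where 0.0487%, 0.0585%, 0.268% and 0.945% of all genes tested were called at days 3, 7, 14 and 28. Its log2 fold changes were 3.09, 2.86, 3.60 and 3.33, with a mean over the 4 days of 3.22 ± 0.09 (edgeR adjusted p = 4.56e-12). The Foxp3 difference stands for the sort as well, since plusFoxp3 cells were selected for the GFP linked to the allele.

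**Figure D1:**
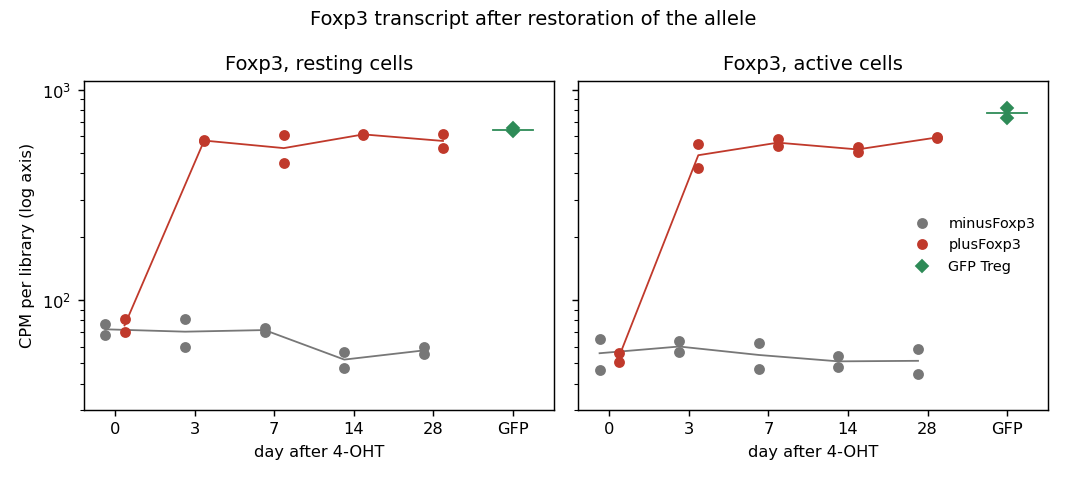
Foxp3 level in CPM (log axis) by day after 4-OHT, with days evenly spaced and one panel per cell state. Points are libraries (2 per group), lines join group means, and GFP Treg libraries stand at the right. PlusFoxp3 libraries sit at 426 to 615 CPM from day 3 on, minusFoxp3 libraries at 44.3 to 81.5 CPM.

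Active cells gave 426 and 550 CPM of Foxp3 at day 3, 582 and 538 CPM at day 7, 505 and 535 CPM at day 14, and 594 and 592 CPM at day 28 in plusFoxp3 libraries. At day 0 they had 50.7 and 55.6 CPM, inside the 44.3 to 65.3 CPM of the 10 minusFoxp3 libraries. The log2 fold changes were 3.09, 3.40, 3.36 and 3.54, with a mean of 3.34 ± 0.11 (edgeR adjusted p = 1.76e-11). Foxp3 was again the only member called at days 3, 7, 14 and 28, beside 0.274%, 0.568%, 0.732% and 1.85% of all genes. GFP Treg cells had 657 and 635 CPM when resting and 734 and 817 CPM when active, above all plusFoxp3 libraries of their state, but neither difference from day 28 plusFoxp3 cells was called for any of the 10 members (0.0341% of genes called in resting and 2.01% in active cells). Reads over the Foxp3 exons that overlap Ppp1r3f, Gm36995, Flicr and Ccdc22, 2082 of 4577 bases, cannot be assigned with certainty.

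Foxp1, the closest relative measured at a high level, was lower in resting cells once Foxp3 was on. Over days 3 to 28 the 8 plusFoxp3 libraries ranged from 441 to 575 CPM (median 524) and the 8 minusFoxp3 libraries from 576 to 717 CPM (median 642). The 2 sets did not overlap. The mean log2 fold change was −0.28 ± 0.07 (edgeR adjusted p = 0.0208), and the days gave −0.32, −0.24, −0.14 and −0.42, with both plusFoxp3 libraries below both minusFoxp3 libraries at all 4 days. At day 0, before Foxp3, the value was 0.05, with 678 and 641 CPM against 611 and 654 CPM. In this mean contrast 2 of 10 members were called, Foxp3 higher and Foxp1 lower, beside 4.73% of all genes, and the same 2 did not overlap, beside 1.44% of all genes. Foxp3 is the restored gene and part of the sort, so Foxp1 is the only call not given by the design. The Foxp1 call was lost when any of 13 of the 16 libraries was left out (adjusted p up to 0.107, without replicate 2 of day 3 minusFoxp3) and without the count filter (adjusted p = 0.0930), while its log2 fold change stayed between −0.33 and −0.24 over the 16 repeats.

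Markers of cell state moved in the same libraries. The summed level of 6 active-state markers was 205 to 381 CPM in resting minusFoxp3 libraries of days 3 to 28 and 334 to 863 CPM in plusFoxp3 libraries, that of 4 resting-state markers was 3710 to 4230 and 2150 to 3410 CPM, and that of 6 proliferation markers was 63.0 to 123 and 96.6 to 424 CPM. The part of these differences in the Foxp1 result was not tested.

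**Figure D2:**
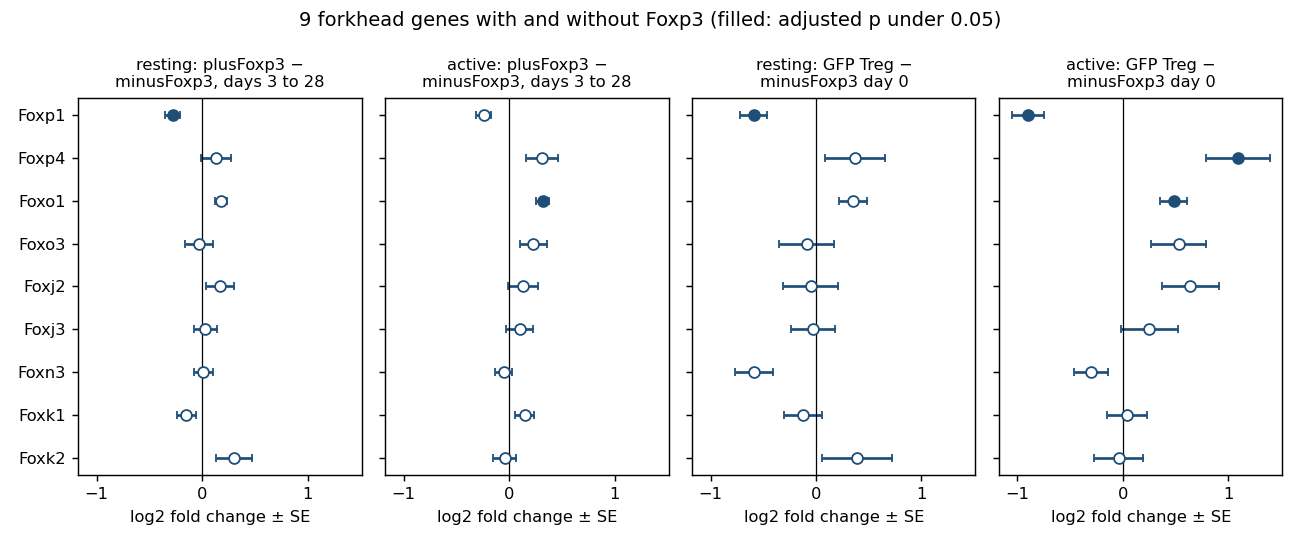
Log2 fold change ± SE of the 9 members other than Foxp3, for plusFoxp3 against minusFoxp3 cells over days 3 to 28 and for GFP Treg against untreated minusFoxp3 cells, in resting and active cells. Filled points passed an adjusted p under 0.05, and Foxp1 lies below 0 and Foxo1 above 0 in all 4 panels.

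In active cells the lower Foxp1 level did not pass the threshold as a mean over days, at −0.24 ± 0.07 (edgeR adjusted p = 0.0634). The 8 plusFoxp3 libraries had 279 to 445 CPM (median 396) and the 8 minusFoxp3 libraries 421 to 531 CPM (median 462), so the ranges overlapped. The days gave −0.21, 0.01, −0.18 and −0.58. The largest difference was at day 28, with 279 and 373 CPM against 451 and 531 CPM (edgeR adjusted p = 0.0568). DESeq2 called the mean (adjusted p = 0.0216) and day 28 (adjusted p = 0.00594). So did edgeR with the replicate number as a block (adjusted p = 0.0402 and 0.0333). Leaving out replicate 2 of day 28 plusFoxp3 moved the mean to −0.29 and day 28 to −0.79. That library, at 373 CPM, was the one nearer to the minusFoxp3 cells, so the differences grew without it. The Foxp1 effect was not shown to differ between resting and active cells, since in the test of the difference of the plusFoxp3 effect 0 of 10 members were called (1.82% of all genes).

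GFP Treg cells had the lowest Foxp1 of each state. Active GFP Treg cells had 214 and 258 CPM against 424 and 474 CPM in untreated minusFoxp3 cells, a log2 fold change of −0.90 ± 0.15 (edgeR adjusted p = 0.000536) that was called in all 4 fits that left out 1 library. Resting GFP Treg cells had 402 and 433 CPM against 611 and 654 CPM, a log2 fold change of −0.59 ± 0.13 (edgeR adjusted p = 0.0237), and this call was lost in all 4 such fits (adjusted p 0.0538 to 0.240). Neither pair of groups overlapped. Cell-state markers differed between these groups too. Active-state markers summed to 900 to 924 CPM in resting GFP Treg and 205 to 324 CPM in resting untreated minusFoxp3 libraries, and resting-state markers to 1840 to 1850 and 3420 to 4050 CPM. In active cells the sums were 2200 to 2570 and 1220 to 1620 CPM, and 937 to 1020 and 1070 to 1310 CPM. Their part in the GFP Treg differences was not tested. Against day 28 plusFoxp3 cells, active GFP Treg cells were at −0.46 for Foxp1 (edgeR adjusted p = 0.148). Across the 11 group means per state, the genes most like Foxp1 were Il18r1, Gm35065 and Nebl, each with a Pearson r of at least 0.97 in both states over 12398 genes compared. The groups share the Foxp3 and time axes, so these are descriptions.

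**Figure D3:**
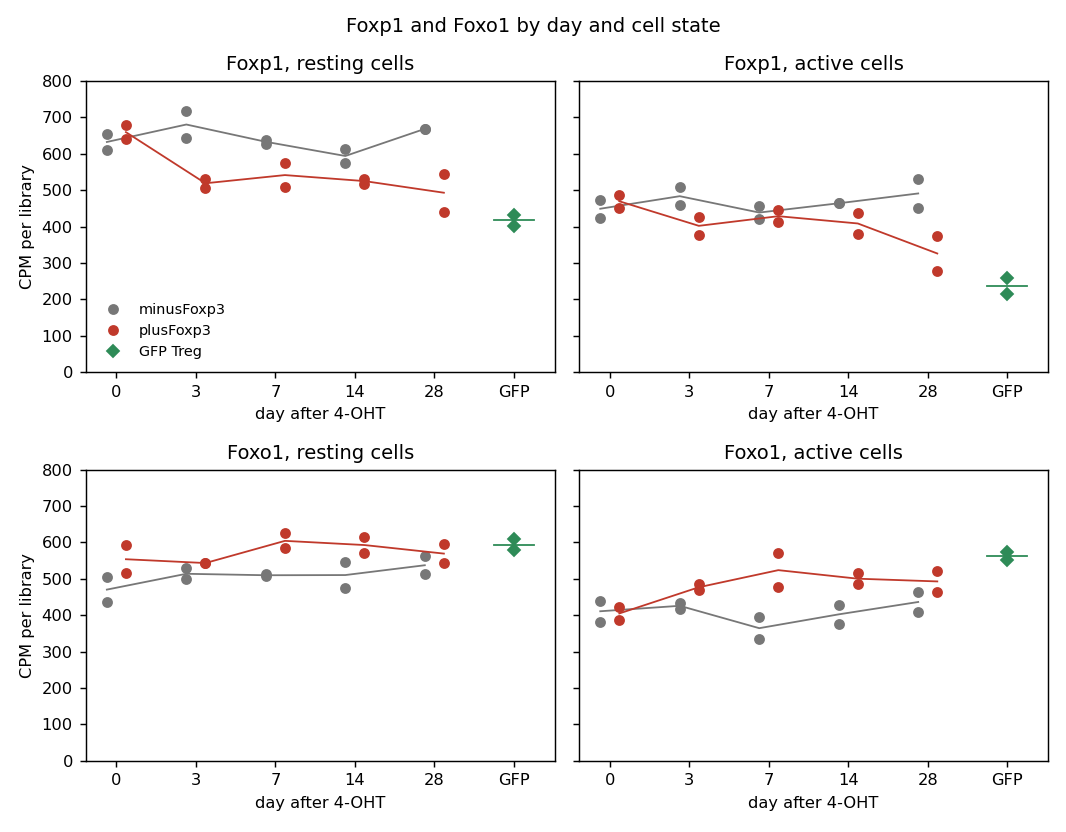
Foxp1 (top) and Foxo1 (bottom) levels in CPM (linear axis from 0) by day after 4-OHT in resting and active cells, with points for libraries, lines joining group means and GFP Treg libraries at the right. The resting plusFoxp3 libraries lie below the minusFoxp3 libraries for Foxp1 from day 3 on, and the active plusFoxp3 libraries lie at 463 to 571 CPM for Foxo1 against 334 to 465 CPM.

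Foxo1 went the other way in active cells. Over days 3 to 28 the 8 active plusFoxp3 libraries had 463 to 571 CPM (median 486) and the 8 minusFoxp3 libraries 334 to 465 CPM (median 413). The ranges met only at their ends, 463 and 465 CPM. The mean log2 fold change was 0.32 ± 0.06 (edgeR adjusted p = 0.00470), it was called in all 16 fits that left out 1 library, and the days gave 0.22, 0.56, 0.32 and 0.19. At day 0 the value was −0.01, with 423 and 387 CPM against 382 and 440 CPM. In this contrast 2 of 10 members were called, Foxp3 and Foxo1, both higher, beside 6.22% of all genes, and only Foxp3 did not overlap, beside 1.39% of all genes. Foxp3 is the restored gene and part of the sort, so Foxo1 is the only call not given by the design. At day 7 Foxo1 had 477 and 571 CPM against 334 and 395 CPM. The 2 minusFoxp3 libraries of that day differed from each other, with summed resting-state markers of 777 and 1230 CPM. Leaving out replicate 2 of them, the one at 395 CPM, moved Foxo1 to 0.68 and Foxj3 to 1.1. Day 7 Foxo1 was called by DESeq2 and by edgeR with the replicate block (adjusted p = 0.00289 and 0.0393), but not by edgeR without the block. Markers moved in these libraries as well. Over days 3 to 28 the summed active-state markers had 1130 to 1810 CPM (median 1280) in active minusFoxp3 and 1530 to 2540 CPM (median 1990) in active plusFoxp3 libraries. The 4 resting-state markers had 777 to 1610 CPM (median 1510) without Foxp3 and 798 to 1120 CPM (median 893) with it, and 6 CD8 T and NK cell markers had 22.4 to 55.3 and 14.0 to 26.5 CPM. Their part in the Foxo1 result was not tested.

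In resting cells the Foxo1 difference was 0.18 ± 0.06 (edgeR adjusted p = 0.133), with 543 to 625 CPM in plusFoxp3 and 475 to 562 CPM in minusFoxp3 libraries of days 3 to 28. There the day 0 value, 0.23, was as large, with 516 and 592 CPM against 437 and 504 CPM. Active GFP Treg cells had 553 and 573 CPM of Foxo1 against 382 and 440 CPM in untreated minusFoxp3 cells, 0.48 ± 0.13 (edgeR adjusted p = 0.0228), a call that was lost with any of the 4 libraries left out (adjusted p 0.0555 to 0.344). The genes closest to Foxo1 in pattern were Il6ra, Tbc1d14 and Atp6v0a1, with r from 0.89 to 0.93.

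The other 7 members showed no called difference with Foxp3 induction at any day or in the mean. Foxp4, the third P-class member, had 24.8 to 35.0 CPM in resting plusFoxp3 and 21.2 to 37.4 CPM in resting minusFoxp3 libraries of days 3 to 28. In active GFP Treg cells it had 43.4 and 42.1 CPM against 22.3 and 18.7 CPM in untreated minusFoxp3 cells, 1.09 ± 0.30 (edgeR adjusted p = 0.0255), and each of the 4 fits without 1 library lost that call (adjusted p 0.0880 to 0.185). In that contrast 4 of 10 members were called, Foxp3, Foxp4 and Foxo1 higher and Foxp1 lower, beside 10% of all genes, and in resting cells 2 of 10, Foxp3 and Foxp1, beside 2.91%. The Foxp3 call in both is given by the design, since minusFoxp3 cells carry the null allele. Foxn3 had mean log2 fold changes with Foxp3 induction close to 0, of 0.01 (−0.17 to 0.19) in resting and −0.05 (−0.20 to 0.11) in active cells. The intervals reach 2 SE to either side. In resting GFP Treg cells, however, it had 265 and 290 CPM against 446 and 399 CPM in untreated minusFoxp3 cells, −0.59 ± 0.18, which edgeR did not call (adjusted p = 0.102) and DESeq2 did (adjusted p = 0.0491). Cell-state markers differed between these groups, as given above, and their part was not tested. For Foxk2 in resting cells the interval was wider, from −0.03 to 0.63. Over the 44 libraries of the reversible allele and of GFP Treg cells, Foxo3 ranged from 9.70 to 23.6 CPM, Foxj2 from 27.2 to 73.4 CPM, Foxj3 from 20.6 to 54.1 CPM and Foxk2 from 16.1 to 43.5 CPM. None of these 4 kept apart plusFoxp3 from minusFoxp3 libraries of days 3 to 28.

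No member was called in the untreated comparison of plusFoxp3 with minusFoxp3 cells (0.00487% of genes in resting and 0.00481% in active cells). The largest day 0 value was that of Foxp4 in resting cells, 0.76 ± 0.29 (edgeR adjusted p = 0.428), with 52.9 and 36.4 CPM against 23.0 and 29.4 CPM. Nor was any member called between days 14 and 28 and days 3 and 7 (0.00487% and 0.0866% of genes called), with values from −0.50 to 0.49 in resting and −0.41 to 0.55 in active cells. The same held within minusFoxp3 cells between treated and untreated days (0% of genes called by edgeR in both states, with unadjusted p under 0.05 for 621 genes in resting and 408 in active cells, and 16 and 1 called by DESeq2). In active cells Foxj3 passed in the first of these when replicate 2 of day 7 minusFoxp3 was left out (adjusted p = 0.0280).

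Degradation of Foxp3 protein was examined in the degron libraries, where the genotype of the libraries is itself uncertain. Each of the 12 adult files is attached to a sample of the other genotype than the library name in its header gives. The genotype written in the name of each of these 12 files is that of its header. The header name was used, and the recorded attachment reverses the sign of every adult genotype difference. For infants, the titles, file names and header names give the same genotype, and the genotype fields give the other. The labels thus disagree, and the direction of that contrast is not settled by them. By header name, the summed level of 5 Treg cell markers was 3000 to 3260 CPM in thymic TIR1 and 3450 to 3810 CPM in thymic WT libraries. In active cells it was 2690 to 2930 and 3020 to 3380 CPM, so the libraries named TIR1 were lower without overlap in both. Infant libraries titled TIR1 had 2830 to 3320 CPM and those titled WT 2650 to 3330 CPM. These sums were not used to assign any library.

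In thymic Treg cells Foxp3 had 168, 144 and 157 CPM in TIR1 and 158, 144 and 181 CPM in WT libraries, and its log2 fold change was −0.05 ± 0.11 (edgeR adjusted p = 0.988). The groups overlapped. None of the 10 members was called, as none of the 14245 genes was (0%, with 1050 genes at an unadjusted p under 0.05 and 160 called by DESeq2). The members ranged from −0.10 to 0.40.

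Active Treg cells had 83.4, 93.4 and 76.7 CPM of Foxp3 in TIR1 and 100, 104 and 127 CPM in WT libraries. The groups did not overlap, yet the difference of −0.42 ± 0.16 was not called (edgeR adjusted p = 1.00), and none of the 10 members or of the 14554 genes was (0%, with 672 genes at an unadjusted p under 0.05 and 22 called by DESeq2). Foxj2 had 15.6, 26.1 and 23.2 CPM in TIR1 and 25.9, 37.7 and 38.1 CPM in WT libraries, −0.68 ± 0.27 (edgeR adjusted p = 1.00), with replicate 2 of TIR1 just above the lowest WT library. The difference between the active and thymic genotype effects called 0 of 10 members and 0% of genes, with Foxj2 at −1.07 ± 0.38 (edgeR adjusted p = 0.684) and 71 genes called by DESeq2.

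**Figure D4:**
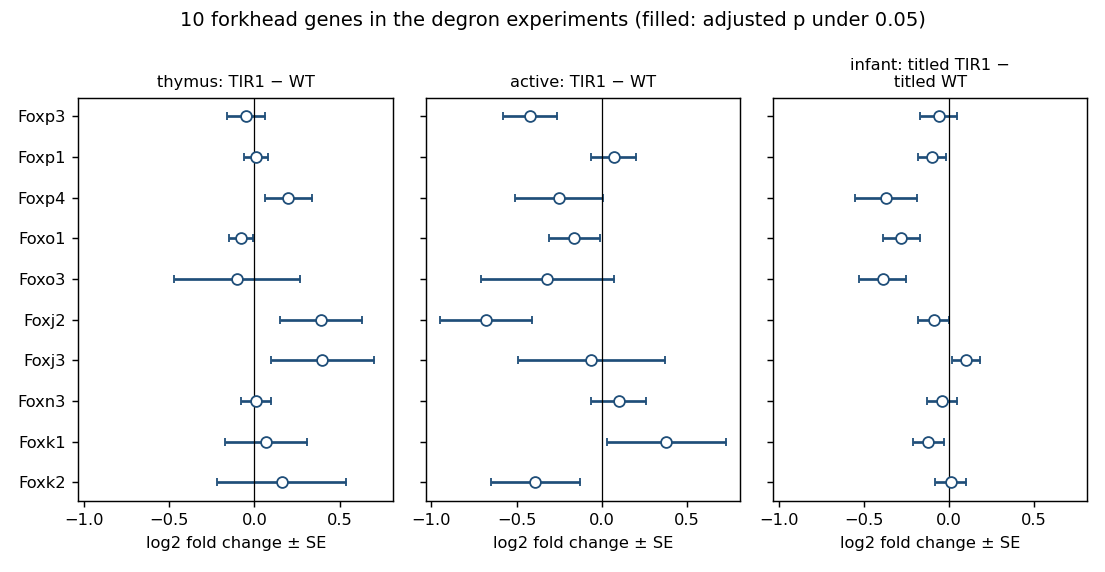
Log2 fold change ± SE of each member between TIR1 and WT libraries in adult thymic, adult active and infant Treg cells, with genotypes by header name in adults and by title in infants. All points are open, which marks values that did not pass an adjusted p of 0.05.

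Infants had the highest levels of Foxj2, Foxj3 and Foxk1 of the study, with 87.4 to 111, 61.2 to 78.5 and 40.8 to 53.8 CPM, although their counting settings match only those of the adult degron libraries. Foxo1 had 312, 338, 361 and 391 CPM in libraries titled TIR1 and 431, 493, 450 and 347 CPM in those titled WT, −0.28 ± 0.11 (edgeR adjusted p = 0.217). Foxo3 had 11.6, 9.30, 12.8 and 10.7 CPM against 16.1, 15.9, 14.2 and 12.9 CPM, −0.39 ± 0.14 (edgeR adjusted p = 0.183), without overlap. None of the 10 members was called, beside 0.0185% of all genes. Over all genes this contrast depended on the tool, with 3 genes called by edgeR, 149 without the count filter and 1111 by DESeq2, and 2827 at an unadjusted p under 0.05, and in none of these 3 fits was a member called. Replicate 4 titled WT had the lowest Foxo1 of its group, and also the lowest Foxp4 with 46.3 CPM beside 64.6 to 83.0 CPM in the other libraries titled WT. Without it, Foxo1 (−0.37, adjusted p = 0.0207) and Foxp4 (−0.52, adjusted p = 0.0205) were called. The summed proliferation markers were 638 to 982 CPM in libraries titled TIR1 and 210 to 619 CPM in those titled WT, and active-state markers 580 to 790 and 197 to 627 CPM. Their part in these differences was not tested.

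In reversible-allele cells more members were called between cell states than in the mean Foxp3 effects, and so were more of all genes. The share of all genes was 37.9% and 26.7% between states without and with Foxp3. It was 4.73% and 6.22% for Foxp3 induction in resting and active cells. The larger number of members called is therefore not particular to the forkhead genes. In minusFoxp3 cells, 8 of 10 members differed between active and resting cells, 7 lower and 1 higher in active cells. This is beside 37.9% of all genes called, 18.3% lower and 19.6% higher. Active cells were sorted for high CD44, among other features, so Cd44 is part of the sort and the forkhead genes are not. In bulk RNA, fewer cells with a transcript and less transcript per cell cannot be told apart.

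Foxn3 was lower in every active library. It had 186 to 242 CPM (median 212) in the 10 active and 317 to 446 CPM (median 400) in the 10 resting minusFoxp3 libraries, a log2 fold change of −0.83 ± 0.07 (edgeR adjusted p = 4.21e-10). Foxk1 had 14.8 to 17.6 CPM (median 15.7) against 23.7 to 34.6 CPM (median 29.8), −0.88 ± 0.07 (edgeR adjusted p = 1.19e-10). Foxp1 had 421 to 531 CPM (median 462) against 576 to 717 CPM (median 642), −0.45 ± 0.06 (edgeR adjusted p = 3.69e-07). These 3 of 10 members did not overlap between the states, beside 10.7% of all genes. The FoxO genes were lower too, Foxo1 by −0.30 ± 0.05 (edgeR adjusted p = 2.77e-05) and Foxo3 by −0.59 ± 0.12 (edgeR adjusted p = 0.000166), with overlapping ranges. Foxp4 was at −0.43 ± 0.13 (edgeR adjusted p = 0.0103). The calls of Foxp3 (−0.22, adjusted p = 0.0357) and of Foxk2 (0.35, adjusted p = 0.0357), the member that was higher, were each lost in 11 of 20 fits that left out 1 library (adjusted p up to 0.103).

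**Figure D5:**
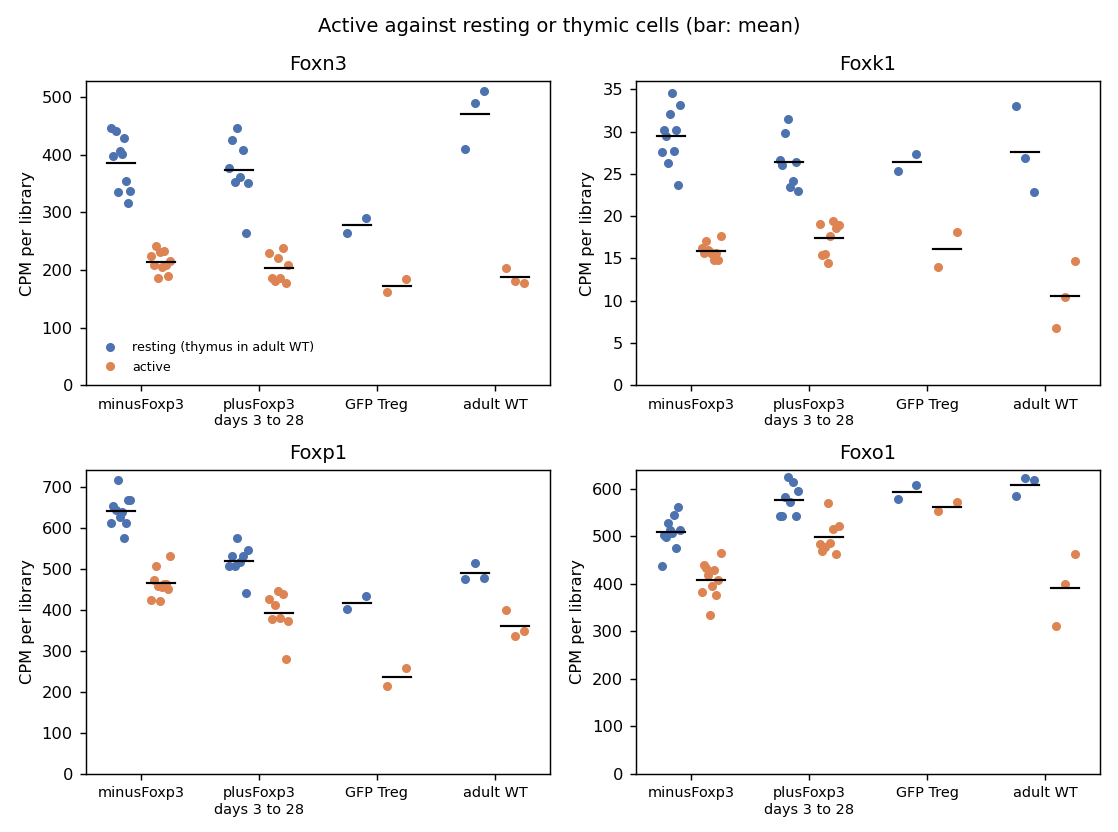
Levels in CPM (linear axis from 0) of Foxn3, Foxk1, Foxp1 and Foxo1 in active cells and in resting cells, or thymic cells in the adult WT set. Points are libraries and bars are means, and Foxn3 and Foxk1 do not overlap between the states in any of the 4 sets.

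With Foxp3 on, 4 of 10 members were called between the states, all 4 lower in active cells, beside 26.7% of all genes (12.7% lower, 14% higher). Foxn3 had 178 to 238 CPM in active and 264 to 446 CPM in resting plusFoxp3 libraries, −0.87 ± 0.08 (edgeR adjusted p = 3.81e-09). Foxk1 had 14.5 to 19.4 CPM against 23.0 to 31.5 CPM, −0.59 ± 0.08 (edgeR adjusted p = 1.83e-06). These 2 members did not overlap, beside 9.47% of all genes. Foxp1 (−0.41, edgeR adjusted p = 1.51e-05) and Foxo1 (−0.21, edgeR adjusted p = 0.00817) were lower as well, with overlapping ranges, and the Foxo1 call was lost without the count filter (adjusted p = 0.232). In GFP Treg cells Foxp1 (−0.84), Foxn3 (−0.70) and Foxk1 (−0.73) were called, 3 of 10 beside 3.12% of all genes (edgeR adjusted p = 0.000394, 0.0164 and 0.0104). The calls of Foxn3 and Foxk1 were lost without either resting library or without active replicate 1 (adjusted p 0.0505 to 0.291).

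The adult degron experiment gave a related comparison, active against thymic Treg cells of WT libraries. Here 5 of 10 members were called and all 5 were lower in active cells, beside 23% of all genes called, 9.22% lower and 13.8% higher. Foxn3 had 204, 181 and 177 CPM in active and 410, 490 and 511 CPM in thymic libraries, −1.24 ± 0.13 (edgeR adjusted p = 2.39e-05). Foxo1 had 311, 400 and 464 CPM against 585, 624 and 619 CPM, −0.55 ± 0.12 (edgeR adjusted p = 0.00581). Foxk1 had 6.70, 10.4 and 14.7 CPM against 33.0, 26.9 and 22.8 CPM, −1.29 ± 0.30 (edgeR adjusted p = 0.00865). The active libraries lay below the thymic ones for all 5, and 6 of 10 members did not overlap, beside 36.9% of all genes.

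Foxp1 and Foxp3 completed the list. Foxp1 had 399, 337 and 348 CPM in active against 476, 515 and 477 CPM in thymic WT libraries, −0.34 ± 0.09 (edgeR adjusted p = 0.0197), and was lost without replicate 2 of either group (adjusted p up to 0.0762) and under the recorded attachment (0.0569), where Foxj2 and Foxp4 passed instead (0.0291 and 0.0372). Foxp3 had 100, 104 and 127 CPM against 158, 144 and 181 CPM, −0.45 ± 0.13 (edgeR adjusted p = 0.0230), and was lost without active replicate 1 or 2 or thymic replicate 1 or 3 (adjusted p up to 0.0977). Proliferation markers summed to 275 to 380 CPM in the 6 active and 12.8 to 53.5 CPM in the 6 thymic libraries, and their part in these differences was not tested.

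Genes known as FoxO targets were examined beside the factors, from a list of 12. Between active and resting minusFoxp3 cells 2 of the 12 were higher and 8 lower, beside 37.9% of all genes called in either direction, with a median log2 fold change of −0.75 against −0.035 over all genes tested. Ccr7, a lymph node homing receptor, was at −1.85 ± 0.11 (edgeR adjusted p = 2.49e-13), and Pik3ip1, an inhibitor of PI3K, at −1.31 ± 0.08 (edgeR adjusted p = 2.91e-13). Gabarapl1, an autophagy gene, was higher at 1.64 ± 0.12 (edgeR adjusted p = 7.81e-12). In plusFoxp3 cells 3 were higher and 6 lower between the states (26.7% of all genes called), and in GFP Treg cells 0 were higher and 3 lower, S1pr1, Ccr7 and Klf2 (3.12% of all genes called). Adult WT cells gave 2 higher and 8 lower in active against thymic cells, beside 23% of all genes called, with Il7r at 4.26 ± 0.17 and S1pr1 at −1.73 ± 0.09 (edgeR adjusted p = 2.24e-08 and 6.75e-08).

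With Foxp3 induction 4 of the 12 FoxO targets were called in resting cells and 3 of the 12 in active cells, beside 4.73% and 6.22% of all genes. In resting cells 1 of 12 was higher (Gabarapl1, 0.60 ± 0.16) and 3 lower, Ccr7 at −0.43 ± 0.07, S1pr1, a receptor for exit from lymph nodes, at −0.33 ± 0.06, and Sesn3 at −0.44 ± 0.09 (edgeR adjusted p = 0.0387, 0.00227, 0.00479 and 0.00976). In active cells, where Foxo1 was higher, 1 was higher (Sesn1, 0.74 ± 0.14) and 2 lower, the death gene Bcl2l11 at −0.74 ± 0.15 and Sesn3 at −0.35 ± 0.10 (edgeR adjusted p = 0.00319, 0.00463 and 0.0439). The medians of the list were −0.23 in resting and −0.07 in active cells.

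Upstream of FoxO, 15 PI3K and Akt genes were listed. Phlpp1, a phosphatase that removes phosphate from Akt, had 3.83 to 6.06 CPM in resting minusFoxp3 libraries of days 3 to 28, 8.89 to 25.9 CPM in plusFoxp3 libraries and 33.4 to 37.5 CPM in GFP Treg cells. The 3 resting sets did not overlap. In active cells minusFoxp3 (1.32 to 4.63 CPM) and plusFoxp3 libraries (3.47 to 16.6 CPM) of those days did. Degron libraries, counted with other settings, had 2.2 to 6.47 CPM in adult active, 3.83 to 11.6 CPM in thymic and 15.0 to 32.2 CPM in infant cells. The mean log2 fold change of Phlpp1 with Foxp3 was 1.54 ± 0.13 in resting and 1.36 ± 0.18 in active cells (edgeR adjusted p = 4.27e-06 and 0.000183). In the resting mean 1 of the 15 was higher and 1 lower (Sgk1, −0.73 ± 0.18, edgeR adjusted p = 0.0322), and in the active mean 2 were higher and 0 lower, the second being Pik3r1 at 0.35 ± 0.09 (edgeR adjusted p = 0.0267). The share of all genes called was 4.73% in the resting and 6.22% in the active mean. Between the states in minusFoxp3 cells 3 were higher and 5 lower in active cells, beside 37.9% of all genes called.

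Of 16 genes for known partner proteins of Foxp3, 2 were higher with Foxp3 in resting cells, Gata3 at 0.45 ± 0.08 and Ezh2 at 0.41 ± 0.10 (edgeR adjusted p = 0.00296 and 0.0331). In active cells 2 were higher and 1 lower, beside 4.73% of all genes called in the resting and 6.22% in the active mean. These were Ikzf2 at 1.41 ± 0.16, Ikzf4 at 0.55 ± 0.12 and Irf4 at −0.49 ± 0.08 (edgeR adjusted p = 2.44e-05, 0.00894 and 0.00110). The Ikzf2 effect differed between the states by 1.04 ± 0.24 (edgeR adjusted p = 0.0184). The genes closest to Foxp3 in pattern were Arl5c, Ppp1r3f and Il2ra, with r of 0.99, 0.98 and 0.97 in both states. The exons of Ppp1r3f overlap those of Foxp3 on the other strand, and counting did not use strand.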

How the data were processed

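RNA of 64 libraries was analysed from the counts the authors deposited, which are read pairs per gene over GENCODE gene names on mm39, made with featureCounts 2.0.3 without strand. Per the file headers, the 20 degron libraries were limited to primary and non-chimeric alignments (minimum mapping quality 30), and the headers of the other 44 show no such limit, so no test crosses that border. Counting without strand leaves reads of overlapping genes uncertain. The submitters' notes name Bowtie2, and the methods of the study name another aligner.

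The test was edgeR's quasi-likelihood F test (edgeR 4.0.16, R 4.3.3) after TMM scaling (robust, mean count of at least 10, Benjamini-Hochberg adjusted p under 0.05 over all genes tested, two-sided). Each degron genotype contrast used its own libraries, contrasts of the reversible allele all 22 libraries of a state, and contrasts between states all 44. SE is the fold change divided by the square root of F. CPM values use library totals without TMM factors. Positions and coding sequences came from GENCODE on GRCm39. The script was tested on simulated data. Other settings were DESeq2 1.42.0, RLE size factors, a replicate block, no filter on counts, other sets of libraries, the recorded file attachment and leaving out each library.

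Libraries were grouped by their labels, and adult degron files by the library name in the header. Named are the 10 members, per list and contrast at most 4 called genes with the smallest adjusted p, and the 3 genes most like each member (Pearson r of group means of log2 CPM with prior count 2, in resting and in active cells, mean count of at least 100, r of at least 0.8). Foxf2 levels and leave-one-out cases were described after their values were seen. The members and gene lists were chosen with earlier results of these data known. One gene of these lists and 1 coding sequence are not reported here.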

Additional observations from a re-analysis of the deposited data

How the results depend on the processing

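Of 290 fold changes (10 members in 29 contrasts), 38 were called, 28 of these whichever 1 library was left out, and 0 were called with the opposite sign in any alternative. RLE size factors moved no count of called members by over 1.5 times. Without the count filter, 1 member was called in the resting mean over days 3 to 28 and 1 in resting GFP Treg against minusFoxp3 cells, where fitting only the groups compared also gave 1. The replicate block and DESeq2 each called 2 members in active cells at day 7 (with Foxo1, adjusted p = 0.0393 and 0.00289) and 2 at day 28 (with Foxp1, 0.0333 and 0.00594), and in the active mean the block called Foxp1 as well (0.0402). Libraries with the same replicate number deviated together (r over 0.1) in 14 of the 21 reversible-allele pairs of groups (−0.07 to 0.46) and in 0 of the 4 degron pairs at every number (−0.27 to 0.18). The labels do not say what a number shares and not every pair passed, so the fit without the block was kept. With adult files taken by their recorded attachment, Foxp3 became 0.05 in thymic and 0.42 in active cells, Foxj2 0.68 in active cells, and the differences between the active and thymic effects 0.37 for Foxp3 and 1.07 for Foxj2, by construction.

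Leaving out 1 library gave 0 to 2 called members in infants, 3 to 5 in adult WT active against thymus, 1 to 2 in the resting mean, 1 in resting GFP Treg against minusFoxp3, 1 to 3 in active cells at day 7, 1 to 2 at day 28, 0 to 1 in active late against early days, 2 in active GFP Treg against minusFoxp3 and 1 to 3 between states in GFP Treg cells. The Foxp3 log2 fold change ranged from −0.11 to 0.04 in the thymus, −0.15 to 0.02 in infants, −0.04 to 0.13 in resting and −0.31 to 0.19 in active cells at day 0, and −0.28 to 0.20 in active minusFoxp3 cells over time. With TMM factors, 20 of 280 group levels moved by over 1 SD. The cause was not tested. SEs of the members reached 0.43 between genotypes of active Treg cells, so differences of that size could not be resolved there. A lone library left in a group was assumed to vary like the other groups.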

Other observations

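Among the 35 forkhead genes outside the 10, most were close to silent, and Foxf2 stood apart in active cells of the reversible allele. It had 23.6 to 81.1 CPM (median 34.4) in the 10 active minusFoxp3 libraries, 0.367 to 4.58 CPM in the 10 resting ones, and 0.171 and 0.208 CPM in active GFP Treg cells. In active plusFoxp3 cells it had 35.7 and 36.1 CPM at day 3, 31.6 and 33.2 CPM at day 7, 24.1 and 21.0 CPM at day 14, and 9.95 and 9.90 CPM at day 28. The later libraries were thus the lower ones, yet still above GFP Treg cells, while those of days 3 and 7 lay within the minusFoxp3 range. The change of the plusFoxp3 effect between days 14 and 28 and days 3 and 7 was not called for Foxf2. Of the 15 other forkhead genes tested there, 0 were called, beside 0.0866% of all genes. The log2 fold change against minusFoxp3 cells was −0.72 ± 0.12 as a mean over days (edgeR adjusted p = 0.00162), and GFP Treg cells were at −5.70 ± 0.35 against day 28 plusFoxp3 cells (edgeR adjusted p = 2.24e-07). The gene was counted at 0 in all 8 infant libraries and at 3.41 to 13.6 CPM in the 6 adult active degron libraries.

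Foxm1, a cell-cycle factor, was higher with Foxp3 in resting cells, at 1.75 ± 0.43 (edgeR adjusted p = 0.0285), in the same libraries in which summed proliferation markers were at 96.6 to 424 CPM against 63.0 to 123 CPM. Foxn2 had 13.8 to 62.0 CPM over all 64 libraries.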
